A study of Homo sapiens with 12 samples.

Results

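The nuclear genes of oxidative phosphorylation were followed in lymphoma cell lines. Members were the probe sets annotated to a single symbol that begins with NDUFA, NDUFB, NDUFC, NDUFS, NDUFV, UQCR, COX4I, COX5, COX6, COX7, COX8 or ATP5, or that is CYC1 or SDHA to SDHD. The rule matched 98 probe sets, 3 of which were dropped because their symbols belong to pseudogenes or a non-coding RNA, and the 95 kept ones gave 87 genes of the 18417 genes tested. Each gene was read from its probe set of highest mean level. Complex I had 41 members, complex II 3, complex III 8, complex IV 17 and complex V 18. By role, 77 were subunits or their isoforms, and the other 10 share the prefixes. These were the assembly factors NDUFAF1 to NDUFAF7 and COX7A2L, the regulator ATP5IF1, and ATP5MGL, a copy related to subunit g. Other protein-coding genes of these names were not analysed here. NDUFA4 and its isoform are annotated as COXFA4 and COXFA4L2 and are no members. The subunits encoded in mitochondrial DNA were not analysed here.

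Oxidative phosphorylation couples the transfer of electrons from NADH and succinate to oxygen with the making of ATP. Complex I oxidises NADH, complex II oxidises succinate, complex III passes the electrons from ubiquinol to cytochrome c, complex IV reduces oxygen, and complex V uses the proton gradient that complexes I, III and IV build. In lymphocytes and lymphomas the pathway is known to respond to activation and growth signals, and NF-kB factors are known to influence the balance between respiration and glycolysis.

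RNA was measured on 12 single-colour arrays of 2 established lines, U-H01, from a Hodgkin lymphoma, and HBL-1, from a diffuse large B-cell lymphoma of the activated B-cell type. Per the labels, all cells, the uninduced controls included, had been infected with doxycycline-inducible hairpins, and the protocol names RelB and cRel as targets with 2 sequences for each. The groups were 4 U-H01 arrays labelled induced and 4 uninduced ones, of 2 time points in each of the transduced populations B1 and B2, and 2 induced and 2 uninduced HBL-1 arrays from population C at 2 time points. Which hairpin a population carries is not in the labels. They also do not say that a group's arrays come from separate cultures, and a p-value then covers the spread of these arrays alone. Values are deposited log2 levels. A level is compared only within a gene, and a difference is a log2 difference given with the standard error (SE) of a limma fit over all 12 arrays.

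The U-H01 arrays labelled induced stood apart from the uninduced ones. Over all probe sets with a single symbol, the correlation between arrays of one group was 0.991 to 0.996. It was 0.992 to 0.994 between induced and uninduced HBL-1 arrays, and 0.8935 to 0.910 between U-H01 arrays labelled induced and uninduced. The last range overlaps the 0.887 to 0.899 between uninduced arrays of the 2 lines. The U-H01 arrays labelled induced had correlations of 0.9045 to 0.9154 with induced and 0.9055 to 0.9169 with uninduced HBL-1 arrays. Those medians, 0.908 and 0.909, lay above the median of 0.901 with the uninduced U-H01 arrays. In a check of sample identity, 4 of the 8 U-H01 arrays and 0 of the 4 HBL-1 arrays did not match the other arrays of their line. Markers of the lines moved in both directions. Of 6 Hodgkin line markers, 2 rose and 3 fell on the U-H01 arrays labelled induced. TNFRSF8, which encodes CD30, averaged 11.59 ± 0.10 on the arrays labelled induced and 6.89 ± 0.21 on the uninduced U-H01 arrays (SD, n = 4 each), whereas GATA3, a transcription factor, averaged 4.81 ± 0.18 and 10.00 ± 0.48, and ID2, an inhibitor of such factors, 4.19 ± 0.31 and 9.41 ± 0.20. Of 7 B-cell markers, 4 rose and 1 fell. CD79A, part of the B-cell receptor, averaged 11.04 ± 0.26 and 5.73 ± 0.13, its partner CD79B 6.27 ± 0.19 and 6.32 ± 0.41 (adjusted p = 0.751), MS4A1, the gene of CD20, 4.52 ± 0.12 and 4.49 ± 0.10 (adjusted p = 0.816), and BLK, a kinase, 5.41 ± 0.33 and 6.20 ± 0.21 (adjusted p = 0.000765). RELB, one of the named targets, averaged 7.25 ± 0.11 and 7.40 ± 0.13 in these groups, with an adjusted p of 0.209, and REL, the gene of cRel, 10.16 ± 0.16 and 9.96 ± 0.08, with an adjusted p of 0.0721. In HBL-1, REL averaged 9.25 ± 0.16 on induced and 9.74 ± 0.06 on uninduced arrays (SD, n = 2 each, adjusted p = 0.123) and RELB 7.48 ± 0.12 and 7.67 ± 0.0013 (adjusted p = 0.749). Neither target therefore passed as lower in either line, and directions rest on the labels. Differences within U-H01 cannot be told apart from differences between cells of unlike origin. The identity check does not settle which U-H01 arrays are of that line, so comparisons of U-H01 with HBL-1 rest on the labels as well.

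In U-H01, 34 of the 87 genes rose and 16 fell on the arrays labelled induced at an adjusted p under 0.05, which was called in 22.3% of all genes for rises and 23.5% for falls. The rises thus made up 39.1% of the members and the falls 18.4%. The median difference of the members was 0.16, beside 0.03 over all genes tested, and 63 of the 87 differences lay above 0 (72.4%, beside 54.9% of all genes). The arrays of the 2 groups did not overlap in 34 members that were higher and 15 that were lower, shares that over all genes were 20.0% and 21.1%. In bulk RNA, a change in the RNA of each cell and a change in the mix of cells cannot be told apart. With each array centred on its own median, the median of all genes shifted by 0.13 and the calls became 46 rises and 8 falls. Over all 18417 genes the calls moved the same way, from 4115 rises and 4320 falls to 6981 and 3414. The median of the members lay 0.13 above that of all genes, a gap that such centring cannot change.

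**Figure D1:**
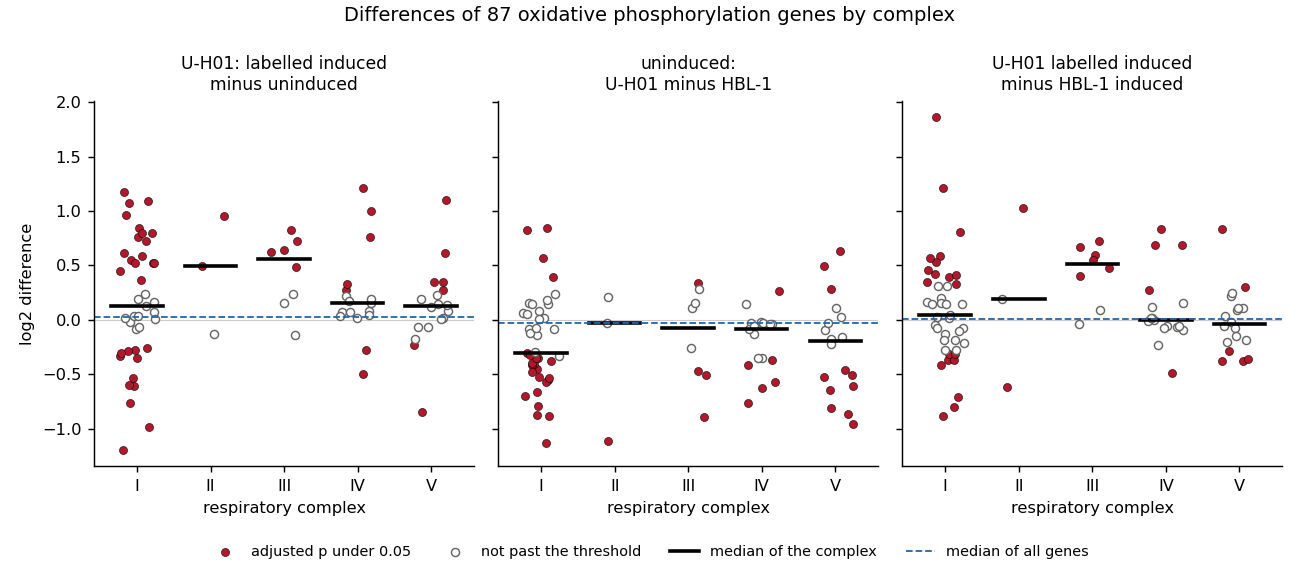
Log2 differences (vertical axis) of the 87 genes by complex (horizontal axis) for U-H01 labelled induced minus uninduced, uninduced U-H01 minus uninduced HBL-1, and U-H01 labelled induced minus induced HBL-1. Filled points passed an adjusted p of 0.05, open points did not, bars are medians of a complex and the dashed line is the median of all genes; complex III stands at 0.55 in the left panel, and most filled points of complex I lie below 0 in the middle panel.

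Promoters are shown for 6 members with clear differences, 4 that rose and 2 that fell in U-H01, because they carry motifs of factors known to drive respiratory genes. Sequences are from RefSeq on GRCh38.p14, for which 73 of the 87 members had a promoter. Capitals mark a match on either strand to the NRF1 motif, GCGCA, any base and GCGC, or to the GABP motif CCGGAAG, and each sequence ends at the base before the annotated start. SDHA lies at chr5:218140-218319 (plus strand), NDUFA9 at chr12:4649014-4649113 (plus strand), NDUFA3 at chr19:54102675-54102854 (plus strand) and ATP5MJ at chr14:103921530-103921589 (minus strand), all with NRF1 matches. COX6A1 lies at chr12:120438053-120438112 (plus strand) and COX8A at chr11:63974560-63974619 (plus strand), with GABP matches.
SDHA: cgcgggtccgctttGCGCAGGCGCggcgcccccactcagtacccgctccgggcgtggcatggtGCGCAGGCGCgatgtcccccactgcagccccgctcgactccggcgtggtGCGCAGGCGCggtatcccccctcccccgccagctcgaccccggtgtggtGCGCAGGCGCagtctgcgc
NDUFA9: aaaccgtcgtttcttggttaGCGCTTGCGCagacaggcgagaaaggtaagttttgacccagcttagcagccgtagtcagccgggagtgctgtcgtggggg
NDUFA3: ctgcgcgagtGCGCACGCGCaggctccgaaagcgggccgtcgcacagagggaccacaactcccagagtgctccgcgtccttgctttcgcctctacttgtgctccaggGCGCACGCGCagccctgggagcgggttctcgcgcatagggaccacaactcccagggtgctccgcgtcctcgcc
ATP5MJ: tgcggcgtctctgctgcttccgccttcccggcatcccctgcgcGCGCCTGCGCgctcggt
COX6A1: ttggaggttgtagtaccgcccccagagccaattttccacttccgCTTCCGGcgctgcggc
COX8A: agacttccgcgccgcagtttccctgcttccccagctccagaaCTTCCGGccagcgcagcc

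The SDHA promoter held 4 NRF1 matches in a repeated setting, beginning 166, 117, 68 and 19 bases before the start, and NDUFA3 held 2, at 170 and 73 bases. NRF1 matches thus stand in promoters of members that rose, such as SDHA and NDUFA9, and of members that fell, such as NDUFA3 and ATP5MJ. Matches were counted on both strands in windows of 250 bases before the start and 50 from it. Over the 73 promoters, 17 held the NRF1 motif, 23.3% against 8.91% of the 14237 tested genes with a promoter and 6.28% of all 27305 promoters of the same length. The GABP motif was in 20 (27.4% against 14.6% of tested genes and 10.7% of all promoters) and the YY1 motif AAGATGGC in 10 (13.7% against 4.07% and 3.03%). In 3 of the 20 GABP members and 8 of the 10 YY1 members, as in the only member with the ERRA motif TCAAGGTCA, SDHD, the match began after the start (ERRA 1.37% against 0.211% and 0.359%). The SP1 motif GGGCGGG was in 18 (24.7% against 45.7% and 32.9%). The kB consensus was in 9, and its share of 12.3% did not exceed the 12.4% of tested genes (10.8% of all promoters). These are matches of letters in a window, and they say nothing of binding.

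**Figure D2:**
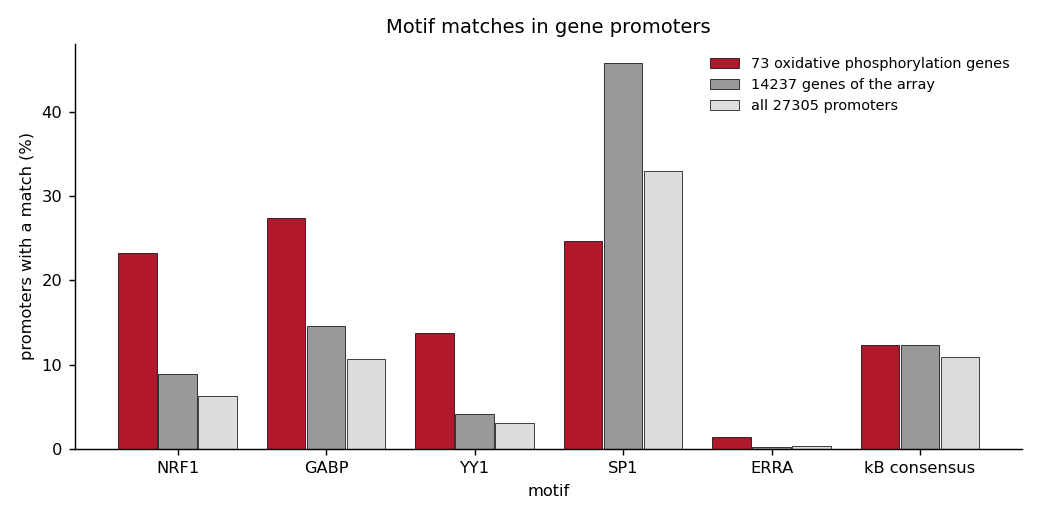
Share of promoters (vertical axis, percent) with a match to each motif (horizontal axis) for the 73 members with a RefSeq promoter, for the genes of the array and for all promoters. The members' bars are the tallest for NRF1 (23.3%), GABP (27.4%), YY1 (13.7%) and ERRA (1.37%), the SP1 bar of the members (24.7%) is the shortest of its 3, and the kB bars differ little.

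Complex I, the NADH dehydrogenase, moved in both directions in U-H01. Of its 41 members, 17 rose, 12 fell and 12 did not pass (41.5% and 29.3% called, beside 22.3% and 23.5% of all genes), with a median difference of 0.13 that was 0.078 and 0.082 without replicate 3 or 1 labelled induced. Among the core subunits, which between them carry the flavin and the iron-sulfur clusters, 3 of 6 rose and 2 fell. NDUFS1 rose by 0.79 ± 0.08 (SE), NDUFV1, which binds the flavin, by 0.52 ± 0.10, and NDUFS7 by 0.44 ± 0.10. NDUFV2 changed by -0.30 ± 0.09 and NDUFS3 by -0.26 ± 0.08, both past the threshold and lower, while NDUFS8 was at 0.03 ± 0.08. The subunits of one catalytic arm thus did not share a direction.

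Of the 28 supernumerary subunits of complex I, which surround the core, 11 rose and 6 fell. These were 39.3% and 21.4%, beside 22.3% and 23.5% of all genes, so the share of falls was near that of all genes. NDUFB10 had log2 levels of 8.75, 8.45, 9.04 and 8.49 on the arrays labelled induced, against 7.50, 7.66, 7.76 and 7.52 on the uninduced ones. The groups of this membrane-arm subunit did not overlap, and the difference was 1.07 ± 0.11 (2.1-fold, adjusted p = 5.71e-06). NDUFA6 had log2 levels of 9.79, 9.57, 9.66 and 9.56 on the arrays labelled induced, against 8.68, 8.70, 8.94 and 8.90 on the uninduced ones, a difference of 0.84 ± 0.09 (adjusted p = 5.69e-06). NDUFA6 belongs to the LYR-motif proteins and was likewise higher on every array labelled induced. The other risers were NDUFS6 at 0.79, NDUFA9 at 0.76, NDUFA8 at 0.72, NDUFA11 at 0.61, NDUFV3 at 0.59, the acyl carrier protein NDUFAB1 at 0.55, NDUFA12 at 0.52, NDUFB3 at 0.52 and NDUFS4 at 0.37. The other probe set of NDUFS4 gave 0.04 with an adjusted p of 0.802, so that the call depends on the probe set.

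The falls of complex I included the member with the lowest difference of all 87. NDUFC1 had log2 levels of 8.10, 7.60, 8.26 and 8.26 on the arrays labelled induced, against 9.00, 9.18, 9.43 and 9.40 on the uninduced ones. The groups of this membrane-arm subunit were separated by more than their own ranges, with a difference of -1.20 ± 0.10 (2.29-fold lower, adjusted p = 7.39e-07). NDUFA3 had log2 levels of 8.98, 8.70, 8.95 and 8.96 on the arrays labelled induced, against 9.93, 9.89, 9.80 and 9.91 on the uninduced ones, a difference of -0.98 ± 0.09 (adjusted p = 1.19e-06). Replicate 2 labelled induced was the lowest of its group for NDUFC1, NDUFA3 and several genes below. NDUFA5 had log2 levels of 7.93, 7.57, 7.98 and 7.39 on the arrays labelled induced, against 8.28, 8.35, 8.40 and 8.29 on the uninduced ones. NDUFB6 had log2 levels of 6.85, 6.53, 6.91 and 6.52 on the arrays labelled induced, against 7.12, 7.27, 7.41 and 7.41 on the uninduced ones. NDUFA5, of the matrix arm, thus changed by -0.61 ± 0.10 and NDUFB6, of the membrane arm, by -0.60 ± 0.10, in each case with no overlap. NDUFA1 had log2 levels of 9.96, 9.79, 9.92 and 9.81 on the arrays labelled induced, against 9.98, 10.17, 10.47 and 10.28 on the uninduced ones, and NDUFA7 9.02, 8.87, 9.00 and 9.21, against 9.37, 9.41, 9.36 and 9.29. Their differences were -0.35 ± 0.10 and -0.34 ± 0.09, and both lost the call when arrays were centred on their medians (adjusted p of 0.0896 and 0.0804).

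The 11 supernumerary members that did not pass spanned a narrow range. NDUFB4 had 0.24, NDUFB9 0.19, NDUFB8 0.16, NDUFB1 0.13, NDUFA10 0.07, NDUFA2 0.03, NDUFB7 0.02, NDUFB2 0.01, NDUFA13 -0.02, NDUFB5 -0.06 and NDUFB11 -0.09.

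All 7 complex I assembly factors passed the threshold in U-H01, 3 higher and 4 lower (42.9% and 57.1%, beside 22.3% and 23.5% of all genes). NDUFAF4 had log2 levels of 9.39, 8.97, 9.42 and 9.21 on the arrays labelled induced, against 7.91, 7.89, 8.41 and 8.10 on the uninduced ones. The difference was 1.17 ± 0.09 (2.25-fold, adjusted p = 3.69e-07). NDUFAF1 had log2 levels of 9.65, 9.19, 9.57 and 9.35 on the arrays labelled induced, against 8.40, 8.25, 8.42 and 8.34 on the uninduced ones, with a difference of 1.09 ± 0.09 (adjusted p = 3.08e-07). NDUFAF1 and NDUFAF4 both act in building complex I, and neither group overlapped the other. NDUFAF6 had log2 levels of 7.40, 6.80, 7.04 and 7.27 on the arrays labelled induced, against 6.02, 6.03, 6.26 and 6.36 on the uninduced ones, a difference of 0.96 ± 0.12. NDUFAF2 had log2 levels of 6.47, 6.31, 6.68 and 6.25 on the arrays labelled induced, against 7.12, 7.42, 7.16 and 7.05 on the uninduced ones. The probe set of highest mean for NDUFAF2 lies, in the order of probe identifiers, among genes of another chromosome, and gave -0.76 ± 0.11, while the probe set among its own neighbours gave -0.34 ± 0.09 (adjusted p = 0.00992). NDUFAF5 had log2 levels of 6.55, 5.87, 6.42 and 6.32 on the arrays labelled induced, against 6.91, 6.83, 6.83 and 6.73 on the uninduced ones, a difference of -0.54 ± 0.11. NDUFAF7, a methyltransferase, and NDUFAF3 were lower by smaller amounts, at -0.29 ± 0.09 and -0.28 ± 0.09. The assembly factors thus held members among both the largest rises and the largest falls.

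**Figure D3:**
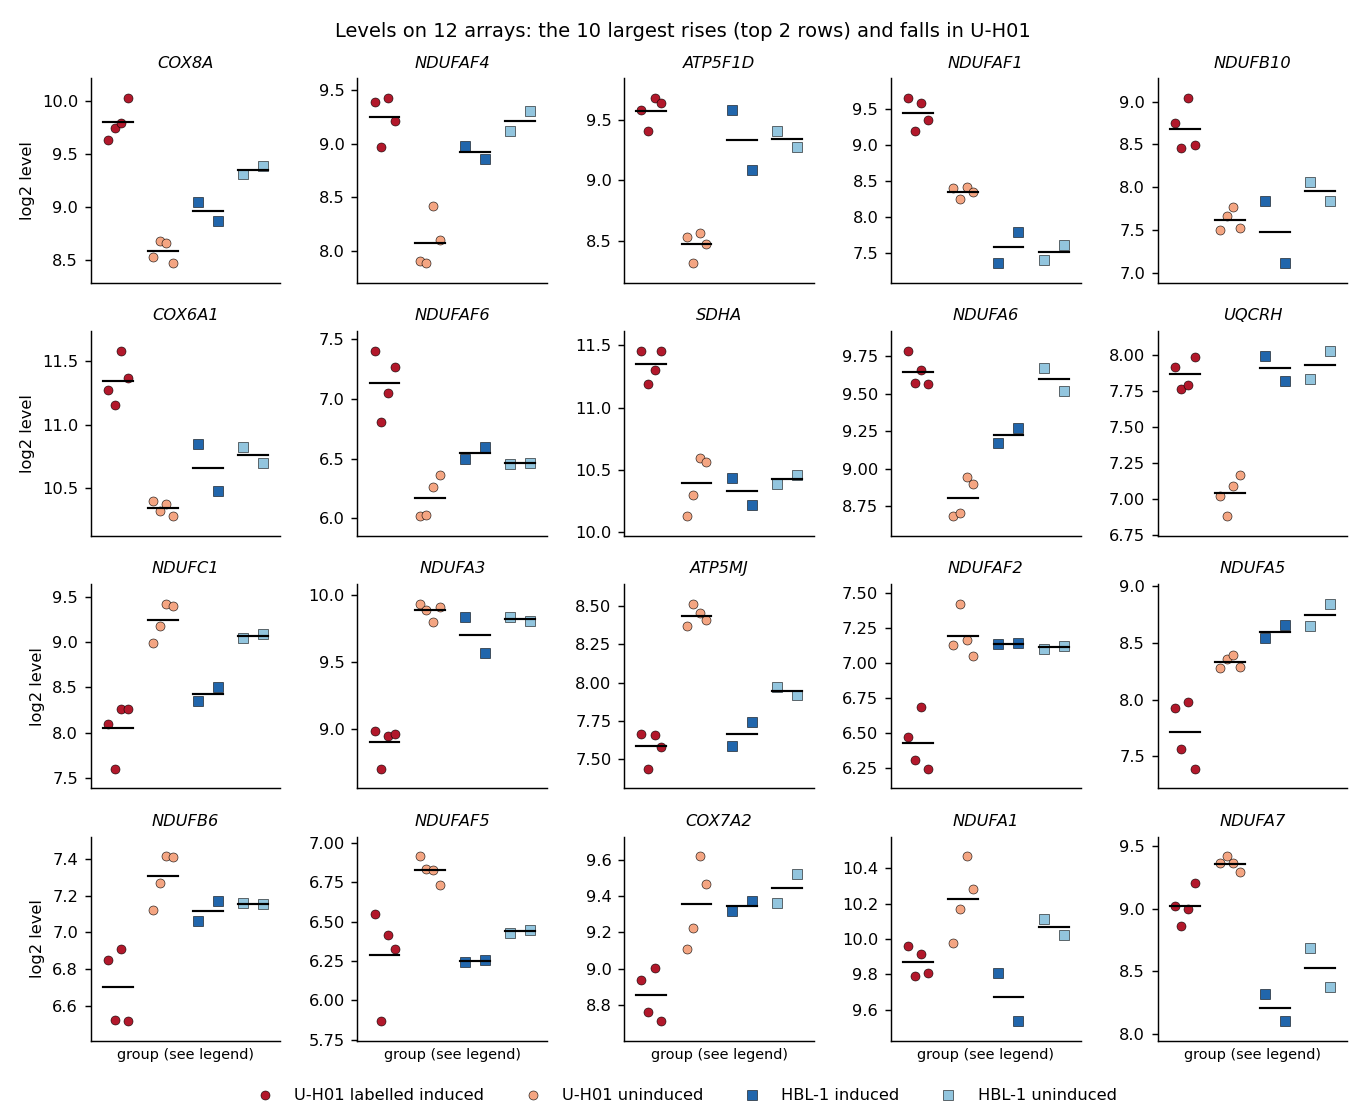
Log2 levels (vertical axis, own scale for each gene) on the 12 arrays, grouped by colour, for the 10 members with the largest rises (upper 2 rows) and the 10 with the largest falls (lower 2 rows) in U-H01. Short lines are group means; in SDHA the 4 arrays labelled induced lie at 11.19 to 11.46, above all other arrays, which lie at 10.13 to 10.59.

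In complex II, the succinate dehydrogenase, 2 of 3 members rose and 0 fell, beside rises in 22.3% and falls in 23.5% of all genes. SDHA had log2 levels of 11.45, 11.19, 11.30 and 11.46 on the arrays labelled induced, against 10.13, 10.30, 10.59 and 10.56 on the uninduced ones. The flavoprotein subunit SDHA was higher on every array labelled induced, by 0.95 ± 0.10 (1.94-fold, adjusted p = 5.66e-06), and within the uninduced group B2 lay at 10.59 and 10.56 and B1 at 10.13 and 10.30. SDHD, a membrane anchor, had levels of 10.38, 10.23, 10.26 and 10.25 on the arrays labelled induced, against 9.74, 9.72, 9.89 and 9.79 on the uninduced ones, a difference of 0.49 ± 0.08 (0.42 ± 0.09 from the probe set among its own neighbours). SDHC, the other anchor, changed by -0.13 ± 0.08 and did not pass, at 0.06 ± 0.10 from its other probe set.

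Complex III was the complex with the highest median difference in U-H01, 0.55, with 5 of 8 members higher and 0 lower (62.5% and 0.0%, beside 22.3% and 23.5% of all genes). Complex II was close, at 0.49, and lay above complex III in B1 alone, at 0.58 against 0.53. With repeated quantile normalization complex II was at 0.53 and complex III at 0.5265, so their order was not stable. UQCRH, the hinge protein beside cytochrome c1, had levels of 7.92, 7.77, 7.79 and 7.99 on the arrays labelled induced, against 7.02, 6.88, 7.09 and 7.17 on the uninduced ones, a difference of 0.83 ± 0.09 (adjusted p = 8.57e-06). CYC1, cytochrome c1 itself, had 10.84, 10.56, 10.97 and 10.90, against 9.92, 10.14, 10.17 and 10.14, a difference of 0.72 ± 0.10. In neither gene did the groups overlap. UQCR10 rose by 0.64 ± 0.09, and the core proteins UQCRC1 and UQCRC2 by 0.62 ± 0.10 and 0.48 ± 0.09. UQCRB at 0.24, UQCR11 at 0.16 and UQCRQ at -0.14 did not pass. Cytochrome c, the carrier that complex III loads, is encoded by CYCS and did not pass either (-0.06 ± 0.08), while HCCS, the lyase that attaches its haem, fell by 0.63 ± 0.09.

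In complex IV, the cytochrome c oxidase, 5 of 17 members rose and 2 fell (29.4% and 11.8%, beside 22.3% and 23.5% of all genes), and the members that moved most were ubiquitous isoforms. COX8A had log2 levels of 9.64, 9.74, 9.79 and 10.03 on the arrays labelled induced, against 8.54, 8.69, 8.66 and 8.47 on the uninduced ones. COX8A had the largest rise of the 87 genes, 1.21 ± 0.10 (2.31-fold, adjusted p = 3.62e-07), and its groups did not overlap. COX6A1 had log2 levels of 11.28, 11.16, 11.58 and 11.37 on the arrays labelled induced, against 10.40, 10.32, 10.38 and 10.28 on the uninduced ones, a difference of 1.002 ± 0.09 (adjusted p = 8.44e-07). COX7B rose by 0.76 ± 0.16, COX7C by 0.33 ± 0.09 and COX5A by 0.27 ± 0.08. COX7A2 had log2 levels of 8.94, 8.76, 9.01 and 8.71 on the arrays labelled induced, against 9.11, 9.22, 9.62 and 9.46 on the uninduced ones, so that this ubiquitous subunit 7A isoform fell by 0.50 ± 0.10 without overlap. COX7A2L, a factor of supercomplex assembly, changed by -0.28 ± 0.08, which also passed as lower. COX4I1 at 0.22, COX6B1 at 0.19, COX6C at 0.17 and COX5B at 0.08 did not pass.

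None of the tissue isoforms of complex IV passed the threshold. COX4I2, the lung isoform, was at 0.08, the muscle isoforms COX6A2 and COX7A1 were at 0.15 and 0.04, and the testis isoforms COX6B2, COX7B2 and COX8C were at 0.01, 0.07 and 0.04. The testis isoforms averaged 3.49, 3.17 and 3.71 over all arrays, below the array lower quartiles of 4.18 to 4.28. COX7A1 at 5.13 and COX4I2 at 5.42 lay below the array medians of 5.79 to 5.88, and COX6A2 at 6.57 above them. At levels this low, a lack of difference cannot be told apart from a lack of expression. COXFA4, the other name of NDUFA4, was at 0.07 ± 0.07, and COXFA4L2 at -0.12 ± 0.07.

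In complex V, the ATP synthase, 5 of 18 members rose and 2 fell, 27.8% and 11.1%, beside 22.3% and 23.5% of all genes, so that its share of rises was near that of all genes. ATP5F1D had log2 levels of 9.58, 9.40, 9.68 and 9.63 on the arrays labelled induced, against 8.53, 8.32, 8.57 and 8.47 on the uninduced ones. This delta subunit of the central stalk differed by 1.10 ± 0.08 (2.14-fold, adjusted p = 2.01e-07), with no overlap. ATP5MG, subunit g, rose by 0.62 ± 0.07, ATP5MC1, a gene of the c ring, by 0.35 ± 0.08, and the stalk subunits ATP5PD and ATP5PO by 0.34 ± 0.08 and 0.27 ± 0.08. ATP5MJ had log2 levels of 7.67, 7.44, 7.66 and 7.58 on the arrays labelled induced, against 8.37, 8.51, 8.45 and 8.41 on the uninduced ones. ATP5MJ, a small proteolipid, was lower on every array labelled induced, at -0.85 ± 0.08 (adjusted p = 2.85e-06). The c-ring genes parted, since ATP5MC2, which codes for the same mature protein as ATP5MC1, changed by -0.23 ± 0.08 and passed as lower, and ATP5MC3 at 0.15 ± 0.09 did not pass. The alpha and beta subunits of the catalytic head did not pass, with ATP5F1A at 0.08 and ATP5F1B at -0.06. Nor did ATP5F1C, the gamma subunit of the central stalk, at 0.12. ATP5MGL at 0.23, ATP5PB at 0.19, ATP5ME at 0.14, ATP5MF at 0.02, ATP5MK at 0.01, the inhibitor ATP5IF1 at -0.07 and ATP5PF at -0.18 did not pass either.

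The change of no member passed as different between the populations of U-H01, and no member passed between the time points. The levels of the populations were not compared. In B2 alone, 30 members were called higher and 11 lower (18.1% and 19.4% of all genes), and in B1 31 and 9 (18.7% and 20.8%). A test of the change in B2 minus the change in B1 called 0 members, and 0 at an unadjusted p under 0.05, where all genes gave 0.586% and 11.4%. The smallest p was that of COX7A2, with a difference of -0.37 ± 0.17. Between time points 2 and 1, 0 members and 0.0% of all genes were called. At an unadjusted p under 0.05, 7 members were lower (8.05%, beside 4.01% of all genes) and 0 higher (beside 3.71%), led by ATP5MK at -0.26 ± 0.09. Of the 87 differences between time points, 71 lay below 0 (81.6%, beside 47.9% of all genes).

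**Figure D4:**
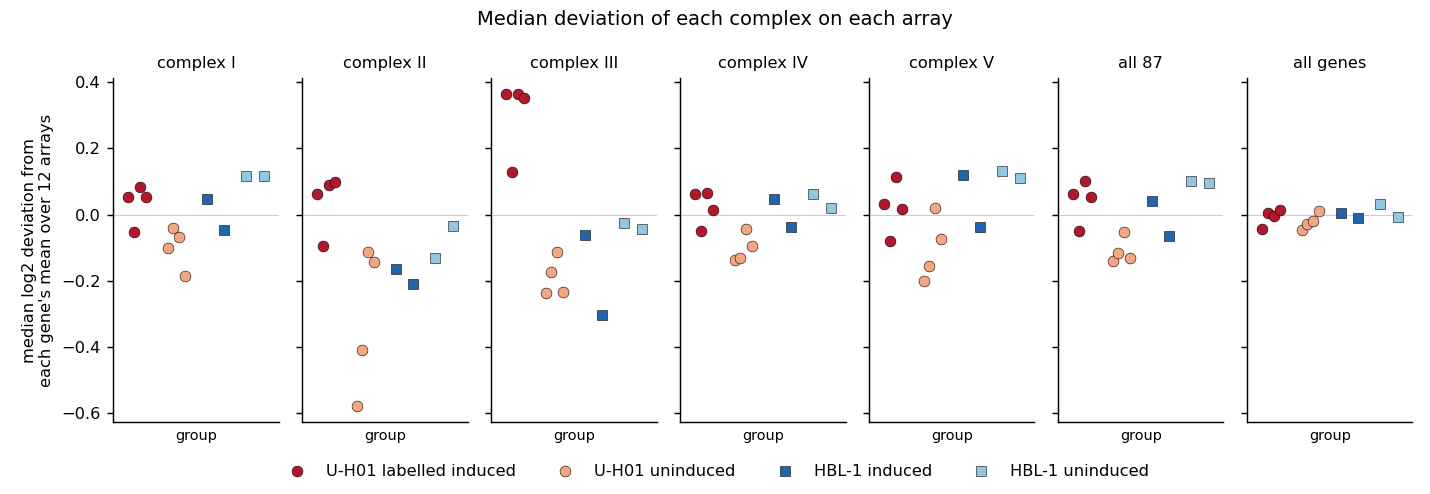
Median deviation of the members of each complex from each gene's mean over the 12 arrays (vertical axis, log2) on every array, by group, with all 87 members and all genes in the last 2 panels. In complex III the arrays labelled induced lie at 0.13 to 0.36 and the uninduced U-H01 arrays at -0.24 to -0.11, while in the panel of all genes the groups overlap.

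In HBL-1, 0 of the 87 genes passed the threshold between induced and uninduced arrays, where 0.603% of all genes did. At an unadjusted p under 0.05, 13 members were lower and 1 higher, 14.9% and 1.15%, beside 4.55% and 5.19% of all genes. Of the 87 differences, 70 lay below 0 (80.5%, beside 53.6% of all genes), and the median was -0.10 beside -0.01 over all genes. Both pairs of arrays pointed lower in 45 members and higher in 10, shares of 51.7% and 11.5% beside 30.3% and 26.6%. A like share of members below 0, 81.6%, stood between the U-H01 time points, which compare no induction. Whether the skew in HBL-1 has to do with induction was not tested. The uninduced arrays carry the hairpins too, and 2 arrays in each group limit the precision, so that a member that did not pass is not shown to be alike in both.

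The 5 members with the smallest p in HBL-1 are given by array, and none passed over all genes. NDUFC1, of the membrane arm of complex I, had levels of 8.35 and 8.50 on induced, against 9.05 and 9.10 on uninduced arrays, a difference of -0.65 ± 0.14 with a 95% interval of -0.96 to -0.33 and an adjusted p of 0.0844. ATP5ME, subunit e of ATP synthase, had 8.65 and 7.96 on induced, against 8.90 and 8.90 on uninduced arrays (difference -0.59 ± 0.17, adjusted p = 0.182). In both genes the induced arrays were the lower ones, and for ATP5ME the array of the later time point lay far below the other. UQCR10, of complex III, had 8.78 and 8.33 on induced, against 9.03 and 9.00 on uninduced arrays (-0.46 ± 0.13, adjusted p = 0.179). NDUFA9, of complex I, had 9.47 and 9.07 on induced, against 9.69 and 9.69 on uninduced arrays (-0.42 ± 0.14, adjusted p = 0.301). NDUFAF7 was the only one of these on the higher side, with 8.57 and 8.71 on induced, against 8.18 and 8.17 on uninduced arrays (0.47 ± 0.12, adjusted p = 0.147). By complex the medians were -0.13 in I, -0.10 in II, -0.12 in III, -0.03 in IV and -0.06 in V. They rest on single arrays. Without either array of replicate 2, induced or uninduced, they were -0.049 in I, 0.0021 in II, 0.012 in III, -0.048 in IV and -0.016 in V. Without either array of replicate 1 they were -0.21 in I, -0.18 in II, -0.28 in III, -0.11 in IV and -0.16 in V. Fitted on the 4 HBL-1 arrays alone, with 1 residual degree of freedom, 8 members were called, 1 higher and 7 lower. The share of all genes called in that fit was not counted, so these calls are not read as a result about the members.

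**Figure D5:**
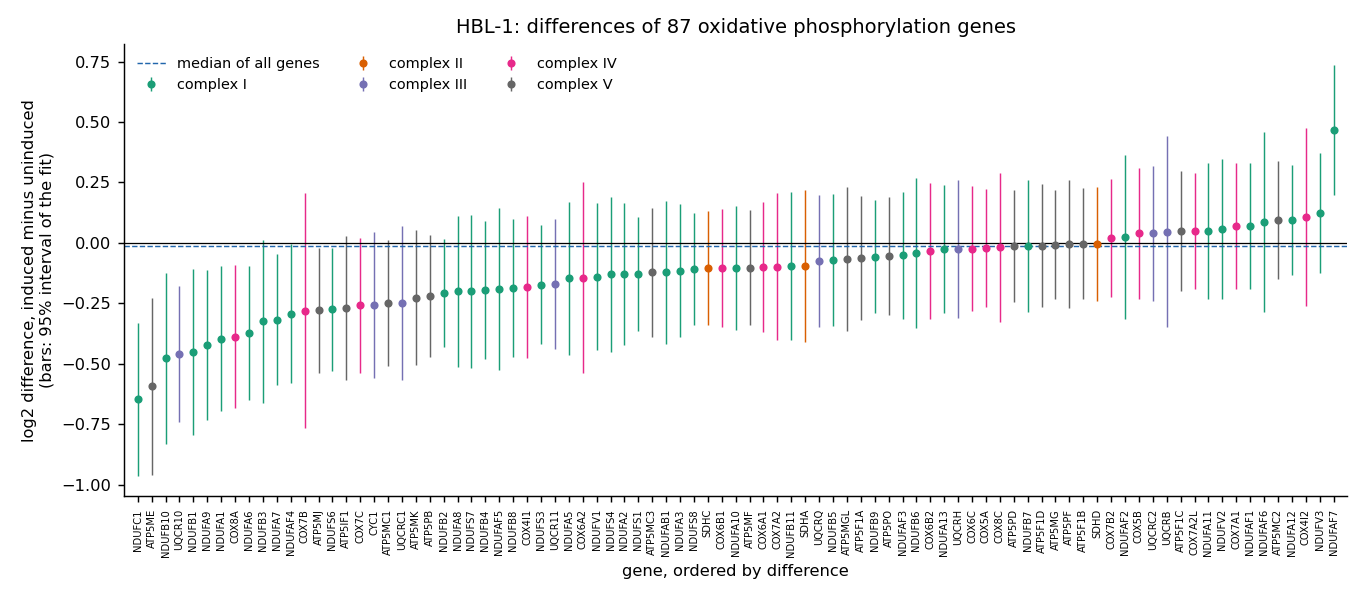
Log2 difference of each of the 87 genes between induced and uninduced HBL-1 arrays (vertical axis) with the 95% interval of the fit, ordered by difference and coloured by complex (2 arrays in each group). The points run from -0.65 in NDUFC1 to 0.47 in NDUFAF7, and 70 of them lie below 0.

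The changes of the 2 lines were set against each other in the same fit. The U-H01 change minus the HBL-1 change passed for 33 members on the higher side and 6 on the lower, which over all genes happened in 15.4% and 17.0%. The median of that difference was 0.29. Directions within U-H01 again rest on arrays labelled induced that stand apart from the uninduced ones.

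Between the uninduced lines, most members that differed were lower on the arrays labelled U-H01, whose identity is limited as said above. There, 37 members were lower and 9 higher than in HBL-1, 42.5% and 10.3%, beside 22.1% and 20.7% of all genes. The median difference was -0.17, beside -0.03 over all genes, and 44 members were lower and 13 higher without overlap (29.7% and 25.6% of all genes). Without HBL-1 uninduced replicate 2 the calls fell to 22, with 3 higher and 19 lower, and the median of complex I was -0.14. The 7 measured B-cell markers were lower in uninduced U-H01, with array means of 6.41 to 6.60 against 10.21 to 10.23 in HBL-1, and their part in these results was not tested.

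Complex I, with 41 of the 87 members, held 20 of the 37 lower ones, with 4 higher and a median of -0.31. Its lower and higher calls were 48.8% and 9.76% of its members, beside 22.1% and 20.7% of all genes. Of its 28 supernumerary subunits, 17 were lower (60.7%). NDUFAF4 had levels of 7.91, 7.89, 8.41 and 8.10 in uninduced U-H01, against 9.12 and 9.30 in uninduced HBL-1, a difference of -1.13 ± 0.11 (adjusted p = 3.97e-06). NDUFAB1 had 8.43, 8.48, 8.79 and 8.62, against 9.46 and 9.47, and NDUFA9 8.83, 8.90, 8.73 and 8.81, against 9.69 and 9.69. All 3 were lower on every U-H01 array, the last 2 by -0.89 ± 0.12 and -0.87 ± 0.12. NDUFA6 was lower by the same measure at -0.79, NDUFB3 at -0.70 and NDUFB8 at -0.66. NDUFAF1 went the other way, with 8.40, 8.25, 8.42 and 8.34 in U-H01, against 7.40 and 7.62 in HBL-1, and so did NDUFA7, with 9.37, 9.41, 9.36 and 9.29, against 8.69 and 8.37. Their differences were 0.84 ± 0.10 and 0.83 ± 0.11. NDUFAF7 at 0.57 ± 0.11 and NDUFAF5 at 0.39 ± 0.13 were the other 2 higher members of complex I. The call of NDUFAF7 was lost without HBL-1 uninduced replicate 2 (adjusted p = 0.0523). The call of NDUFAF5 was lost in 8 of 21 other settings, with an adjusted p of up to 0.233.

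In the other complexes the members that differed were again mostly lower in uninduced U-H01. SDHD had 9.74, 9.72, 9.89 and 9.79 in U-H01, against 10.93 and 10.87 in HBL-1, a difference of -1.11 ± 0.09 (-0.98 ± 0.11 from the probe set among its own neighbours), while SDHA at -0.03 ± 0.12 did not pass. UQCRH had 7.02, 6.88, 7.09 and 7.17, against 7.84 and 8.03, a difference of -0.89 ± 0.11. COX8A had 8.54, 8.69, 8.66 and 8.47, against 9.31 and 9.39, a difference of -0.76 ± 0.12. These 3 genes of complexes II, III and IV were lower on every U-H01 array. In complex V, 8 of 18 members were lower and 3 higher (44.4% and 16.7%, beside 22.1% and 20.7% of all genes). ATP5MC1 had 8.20, 8.16, 8.39 and 8.38, against 9.29 and 9.19 (-0.96 ± 0.10), ATP5F1D 8.53, 8.32, 8.57 and 8.47, against 9.41 and 9.27 (-0.87 ± 0.10), and ATP5MG 10.46, 10.32, 10.42 and 10.31, against 11.16 and 11.22 (-0.81 ± 0.09). ATP5MC2 was higher instead, with 9.60, 9.74, 9.60 and 9.58 in U-H01, against 9.04 and 8.96 in HBL-1 (0.63 ± 0.10), so that 2 genes of the c ring lay on opposite sides. ATP5MJ had 8.37, 8.51, 8.45 and 8.41, against 7.97 and 7.92 (0.49 ± 0.10), and lost its call without HBL-1 uninduced replicate 2 (adjusted p = 0.097). The remaining higher calls were small: UQCR11 at 0.34, ATP5F1B, the catalytic subunit, at 0.28 and COX7A2L at 0.27. Median centring, or leaving out either uninduced HBL-1 array, ended all 3 of these calls, and that of COX7A2L was also lost with the replicate block, at an adjusted p of 0.0545.

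Between the arrays labelled induced of U-H01 and the induced HBL-1 arrays, 25 members were higher and 14 lower in U-H01, 28.7% and 16.1%, beside 17.9% and 20.6% of all genes. The median difference was 0.03, beside 0.0043 over all genes. With median centring the split was 29 higher and 10 lower, beside 3680 higher and 3374 lower of all 18417 genes. The calls fell to 17 without HBL-1 induced replicate 1 and to 14 without replicate 2. This comparison shares its U-H01 arrays with the comparison inside U-H01, and the values of both are given side by side.

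Complex III had the highest median of the complexes, 0.51, which rests on the same U-H01 arrays labelled induced as its median within U-H01. Here 6 of its 8 members were higher and 0 lower, beside 17.9% and 20.6% of all genes. With 1 array left out, this median ran from 0.35 without HBL-1 induced replicate 2 to 0.60 without HBL-1 induced replicate 1. CYC1 had levels of 10.84, 10.56, 10.97 and 10.90 in U-H01, against 10.29 and 9.90 in HBL-1 (0.73 ± 0.12), and UQCR11 7.77, 7.69, 7.87 and 7.55, against 7.26 and 6.85 (0.66 ± 0.11). NDUFAF1 had the largest difference, with 9.65, 9.19, 9.57 and 9.35 in U-H01, against 7.36 and 7.80 in HBL-1, 1.86 ± 0.10 (3.63-fold, adjusted p = 2.06e-08). All 3 were higher on every U-H01 array. NDUFB10 had 8.75, 8.45, 9.04 and 8.49, against 7.84 and 7.11 (1.21 ± 0.14), and SDHA 11.45, 11.19, 11.30 and 11.46, against 10.43 and 10.22 (1.02 ± 0.12). ATP5ME had 9.31, 8.98, 9.34 and 8.95, against 8.65 and 7.96 (0.84 ± 0.15), and lost its call without HBL-1 induced replicate 2, the low array named above. COX8A stood at 0.83, NDUFA7 at 0.81, COX6A1 at 0.69 and COX7B at 0.69. COX7B had 8.65, 8.45, 9.21 and 8.27 in U-H01, against 8.09 and 7.83 in HBL-1, the widest spread within U-H01 among these genes, and lost its call without induced replicate 1 or 2 of HBL-1 (adjusted p of 0.1 and 0.215).

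The lower members of this comparison were led by complex I. NDUFA5 had 7.93, 7.57, 7.98 and 7.39 in U-H01, against 8.54 and 8.66 in HBL-1, a difference of -0.88 ± 0.13. NDUFA3 had 8.98, 8.70, 8.95 and 8.96, against 9.84 and 9.57 (-0.80 ± 0.11). NDUFAF2 followed at -0.71, or -0.38 from the probe set among its own neighbours, and SDHD at -0.62. COX7A2 at -0.49, NDUFB6 at -0.41, ATP5F1A at -0.38, ATP5MK at -0.38, NDUFC1 at -0.37 and NDUFB5 at -0.37 each lost the call when an induced HBL-1 array was left out. ATP5MK lost it also in the fit of groups alone. NDUFC1 lost it in 7 of 21 other settings, among them median centring and leaving out U-H01 replicate 2 or 3 labelled induced.

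Genes next to a member on the chromosome were read for the members named above, taking 10 tested genes on each side. A few cases are given here and no tally over the members. Over all genes, 54.9% of the differences in U-H01 lay above 0. Others ran from 18 of 20 neighbours with the sign of the gene for NDUFV1 and 17 for NDUFA8 to 11 for NDUFAF4, 10 for UQCRH and 9 for NDUFA3. For COX6A1, 20 of 20 neighbours had a difference of the same sign in U-H01, with a median of 0.54, and for COX8A 16 of 20, with a median of 0.39. For COX7A2L, 17 of 20 shared the lower sign, with a median of -0.55. For CYC1 and NDUFA5, 5 and 4 of 20 neighbours had the sign of the gene. Between induced lines, 19 of 20 neighbours of SDHD were lower in U-H01, with a median of -0.93 (49.3% of all genes lay below 0). Between uninduced lines it was 14 of 20, with a median of -0.23 (55.5% of all genes). Copy number was not measured, and its part in these differences was not tested.

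Other mitochondrial genes were counted from lists. Of 73 genes of the mitochondrial ribosome, which makes the subunits encoded in mitochondrial DNA, 31 rose and 11 fell in U-H01 (42.5% and 15.1%, beside 22.3% and 23.5% of all genes), with a median of 0.20. MRPS21 was at 1.18 ± 0.08 and MRPL17 at 0.88 ± 0.09, while MRPS33 and MRPL45 were at -1.26 ± 0.11 and -1.04 ± 0.09. In HBL-1, 1 of the 73 passed, beside 0.603% of all genes, MRPS10, which fell (-0.78 ± 0.13, adjusted p = 0.0186). Between uninduced lines, 41 were lower and 7 higher in U-H01 (56.2% and 9.59%, beside 22.1% and 20.7% of all genes), with a median of -0.45, and MRPL12 was at -1.59 ± 0.10. The ribosomal list thus lay on the same side of 0 as the members in both comparisons that share the uninduced U-H01 arrays.

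The counts of the next 4 lists in U-H01 stand beside rises in 22.3% and falls in 23.5% of all genes. Of 12 genes that copy or express mitochondrial DNA, 6 rose and 3 fell, the falls near the share of all genes. TFAM, which packages that DNA, averaged 9.60 ± 0.26 on the arrays labelled induced and 8.57 ± 0.14 on the uninduced ones (SD, n = 4 each), a difference of 1.04 ± 0.11. TFB1M, a methyltransferase of mitochondrial ribosomal RNA, was at 1.44 ± 0.10, MTERF1 at 1.90 ± 0.15 and SLIRP at 0.56 ± 0.08. Of 16 genes of the citric acid cycle and pyruvate dehydrogenase, which supply the electrons, 10 rose and 2 fell, led by DLST at 1.17 ± 0.11, OGDH at 0.99 ± 0.09, SUCLG2 at 0.98 ± 0.10 and IDH3A at 0.59 ± 0.08. Of 10 regulators of mitochondrial genes, 6 rose and 1 fell. The coactivators PPRC1 and PPARGC1B were at 0.67 ± 0.09 and 0.40 ± 0.08, and GABPB1 and GABPA, parts of the factor whose motif was counted above, at 0.50 ± 0.09 and 0.39 ± 0.09. NRF1 itself was at 0.22 ± 0.09 and did not pass (adjusted p = 0.0706). The regulator that fell was YY1, whose motif was also counted, at -0.24 ± 0.08 (adjusted p = 0.0271). Of 38 assembly factors outside the rule, 18 rose and 10 fell (47.4% and 26.3%, the falls again near the share of all genes), with COX10 and SCO1 at 1.03 ± 0.08 and 1.15 ± 0.11 and COA8 and COX11 at -1.54 ± 0.09 and -1.34 ± 0.11, so that factors for the same complex IV lay at both ends.

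Between uninduced lines, 6 of the 12 genes of mitochondrial DNA expression were lower and 3 higher in U-H01, 5 of 16 citric acid cycle genes lower and 2 higher, 5 of 10 regulators lower and 1 higher, and 19 of 38 assembly factors lower and 11 higher, beside 22.1% of all genes lower and 20.7% higher. TFAM was at -1.39 ± 0.13, PPRC1 at -0.995 ± 0.10, MYC at -0.83 ± 0.12 and DLAT at -1.40 ± 0.10, while UQCC2, an assembly factor of complex III, was higher at 1.92 ± 0.10. Array means of T and NK cell, myeloid and stromal markers lay between 4.24 and 6.39 in all groups, but single markers were high and moved within U-H01. Of the 8 T and NK cell markers 2 rose, of the 7 myeloid ones 1 fell, and of the 8 stromal and epithelial ones 2 rose and 1 fell. Over all genes 22.3% rose and 23.5% fell, so these counts are not read as a result about cell types. PECAM1, an endothelial marker that some leukocytes also carry, averaged 5.04 ± 0.08 on U-H01 arrays labelled induced and 10.64 ± 0.20 on the uninduced ones (SD, n = 4 each, adjusted p = 3.52e-13), and CDH1, the gene of E-cadherin, 7.95 ± 0.23 and 5.63 ± 0.07 (adjusted p = 2.57e-09). Hodgkin line markers averaged 7.42 to 7.64 on U-H01 arrays labelled induced and 8.42 to 8.45 on the uninduced ones, and B-cell markers 8.08 to 8.45 and 6.41 to 6.60, and the part of these shifts in the members' differences was not tested.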

How the data were processed

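The authors deposited log2 expression values of 33297 probe sets on 12 arrays. The submitters' processing notes name RMA and Partek, with versions not given in the sources used here. RMA normalizes arrays to like distributions, so a general rise or fall of RNA would not be seen. Array medians were 5.79 to 5.88. The 19460 probe sets paired with 1 symbol by the platform annotation were tested, and their symbols were checked through Entrez identifiers in the RefSeq gene table of GRCh38.p14.

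A linear model over the 12 arrays was fitted in limma 3.58.1 under R 4.3.3 (lmFit and eBayes). Its terms were population, time and induction, the last 2 fitted separately for each line, with 5 residual degrees of freedom. A version with B1 and B2 apart left 4. Tests were two-sided, with Benjamini-Hochberg adjustment over the 19460 probe sets and calls at an adjusted p under 0.05. Counts use 1 probe set for each gene, that of highest mean. The code was tested on simulated data. The number of arrays limits the precision.

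The members and lists were chosen with earlier results of these data known, so lists are described by counts and medians with no test of their own. Per-array values follow a rule of up to 10 rises and 10 falls in each comparison, moved the same way in every pair or, between lines, without overlap, and of the 5 smallest p in HBL-1. Each list is named through up to 4 genes of smallest p. NRF1, named for its motif, and the test of the U-H01 change minus the HBL-1 change were added after the data were seen, as was the own-locus choice of probe sets. The cell type markers given with values, and YY1, were likewise picked after their values were seen.

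Per the labels' protocol, 1 transduced population was divided into an induced and an uninduced part, which pairs its arrays at each time point. After each group's mean was subtracted, the induced and uninduced array of a pair had a correlation of 0.14 and -0.02 in B1, 0.10 and 0.03 in B2 and 0.09 in HBL-1. Alternatives were a replicate block, other scalings, filters, probe-set rules, options of the fit, groups or lines alone, and each array left out. Plots were made in matplotlib 3.10.9 with Python 3.11.15.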

Additional observations from a re-analysis of the deposited data

Results flagged for a closer look

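Among 74 groups of 4 arrays, over the 37 members given by array, 3 arrays lay far from the rest of their group, where chance flags about 1 in 20 groups. NDUFA3 was at 8.70 on U-H01 replicate 2 labelled induced, with the other arrays at 8.95 to 8.98. ATP5MC2 was at 9.74 on uninduced U-H01 replicate 2, with the others at 9.58 to 9.60. CYC1 was at 9.92 on uninduced U-H01 replicate 1, with the others at 10.14 to 10.17.

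The U-H01 change minus the HBL-1 change passed the threshold in limma for 15 of the 20 members given by array within U-H01, beside 32.4% of all genes. These 20 were chosen for the size of their U-H01 change, which is part of this difference, so the count is a description of that choice. The difference was 1.60 for COX8A, 1.55 for NDUFB10, 1.46 for NDUFAF4, 1.21 for NDUFA6, 1.11 for ATP5F1D, 1.10 for COX6A1, 1.05 for SDHA, 1.02 for NDUFAF1, 0.87 for NDUFAF6 and 0.85 for UQCRH. It was -0.87 for NDUFA3, -0.79 for NDUFAF2, -0.57 for ATP5MJ, -0.56 for NDUFB6 and -0.55 for NDUFC1. NDUFC1 was lower on the induced arrays of both lines, at -1.20 in U-H01 and -0.65 in HBL-1, where it did not pass. The largest adjusted p among the 15 was 0.0318, that of NDUFC1.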

How the results depend on the processing

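The count of members called kept within 1.5 times its value in every setting that used all 12 arrays, and no member named by array changed direction. HBL-1 fitted alone called 8 members (share of all genes not counted), where the fit over all arrays called 0. The replicate block, which pairs the arrays of a population and time point, gave 50 called members within U-H01, 44 between uninduced lines, 34 between induced lines and 0 in HBL-1, and of the members given by array it changed the call of COX7A2L alone. Leaving out 1 array gave 45 to 52 calls within U-H01, 0 to 1 in HBL-1 (1 without U-H01 replicate 2 labelled induced), 22 to 47 between uninduced lines and 14 to 39 between induced lines, the lowest without uninduced and without induced replicate 2 of HBL-1. The test of the change in B2 minus the change in B1 and that of time points stayed at 0. Such fits assume that a lone HBL-1 array varies like the other groups.

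Median centring moved the medians within U-H01 to 0.26 for complex I, 0.63 for II, 0.69 for III, 0.29 for IV and 0.26 for V. Between uninduced lines it gave -0.37 for complex I, -0.14 for III and -0.16 for IV, and repeated quantile normalization -0.0009 for III. With 1 array left out, medians between uninduced lines ran from -0.34 to -0.14 in complex I, from -0.17 to 0.12 in II, from -0.25 to 0.044 in III and from -0.19 to -0.042 in IV. In HBL-1 the medians ran from -0.21 to -0.049 in I, from -0.18 to 0.0021 in II, from -0.28 to 0.012 in III, from -0.11 to -0.033 in IV and from -0.16 to -0.016 in V, and within U-H01 from 0.078 to 0.16 in I and from 0.06 to 0.15 in V, with 0.06 and 0.068 in V without uninduced replicate 1 or replicate 1 labelled induced. The median of complex II between induced lines ran from 0.12 to 0.26, that of IV from -0.016 to 0.052, that of V from -0.066 to 0.029, and that of complex I between induced lines from -0.032 to 0.13. The cause of these moves was not tested. Of the members given by array, 18 of 20 within U-H01, 13 of 19 between uninduced lines and 12 of 20 between induced lines kept their call in every setting. Within HBL-1, 6 of 105 fits brought a member past the threshold. Low levels near background understate a fold, and 7 members lay at or below the array medians.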
